A study of Arabidopsis thaliana with 48 samples.

Results

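The data describe what changed in Arabidopsis thaliana seedlings when a transgene for PHABULOSA (PHB) carrying the SDdelta modification was switched on. PHB is a class III homeodomain leucine zipper (HD-ZIPIII) transcription factor, and SDdelta is read here as the loss of the START domain, a predicted lipid-binding domain of this family, because the labels do not spell it out. The comparison rests on 6 of the 48 libraries of the series, chosen by their titles: 3 of induced and 3 of mock-treated PHB-SDdelta seedlings. At an age of 9 days, seedlings of the induced group were sprayed 10 times with β-estradiol (50 µM), with 1% DMSO and the wetting agent Silwet L-77 (at 0.005%). Mock seedlings received the DMSO and Silwet mixture alone. Both were T2 plants on agarose plates. Whole seedlings were collected 24 h after spraying, at 10 days. The PHB line (the same factor without SDdelta) and the CNA-SDdelta line (the sister factor CORONA with SDdelta) served for comparison, each with 3 induced and 3 mock libraries treated in the same way. Another 5 lines, labelled CNA, CNA-PpHOX32, CNA-SmHOX32, CNA-KnC3HDZ_8m and CNA-KnC3HDZ, entered the average of the other 7 lines. The labels give neither the promoter and vector behind the induction, the number of transformation events, nor the number of seedlings pooled. Every line carried a construct, so effects of β-estradiol itself and of the construct cannot be told apart within induced against mock seedlings. The number of the other 7 lines in which a gene moved the same way is given for some genes. That number describes how widely a change was shared. It cannot tell these effects apart either, since the other 7 lines also carried a construct and were induced with β-estradiol.

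HD-ZIPIII proteins bind DNA as dimers through a homeodomain and leucine zipper, and specify the upper (adaxial) side of leaves, the shoot meristem and the pattern of vascular tissue. Their mRNAs are cut by the microRNAs miR165 and miR166. LITTLE ZIPPER (ZPR) proteins are small leucine zipper proteins whose genes HD-ZIPIII proteins activate, and which bind HD-ZIPIII proteins and keep them from DNA, closing a feedback loop.

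The 3 induced PHB-SDdelta libraries held 7444075, 7271221 and 5735058 counts, and the 3 mock libraries 5539812, 3185534 and 2927492. Over the 48 libraries totals ran between 1808765 and 37222617, and the smallest was replicate 3 of induced PHB. Log-scale expression correlated at 0.893 to 0.952 between libraries of the same PHB-SDdelta group (6 pairs) and at 0.811 to 0.856 between induced and mock libraries (9 pairs). Levels are given as CPM, counts per 1000000 of the scaled library total. QuantSeq reads 1 tag near the 3′ end of each transcript. In these whole seedlings, fewer cells of a type and less RNA per cell cannot be told apart.

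Induction changed 1329 of 18909 genes tested (7.03%) in PHB-SDdelta seedlings, with 678 higher (3.59%) and 651 lower (3.44%) in induced than in mock seedlings. The test was edgeR's quasi-likelihood test with Benjamini-Hochberg adjustment over all genes tested and a threshold of 0.05; every adjusted p below comes from it, and "called" means past that threshold. The median log2 fold change of all genes tested was 0.07, and the median size among called genes was 1.45. Among the higher genes were 12 of 16 tested genes for cold and dehydration proteins, 8 of 16 for abscisic acid metabolism and its phosphatases, 9 of 11 for detoxification and 11 of 28 for wax, cutin and epidermis. Among the lower ones were 30 of 33 photosystem and antenna genes, 13 of 13 of the Calvin cycle, 8 of 20 Aux/IAA genes, 6 of 18 XTH wall enzymes and 7 of 18 aquaporins. When each of the 6 libraries was left out in turn, 758 of the 1329 genes (57.0%) kept their call in every fit.

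**Figure D1:**
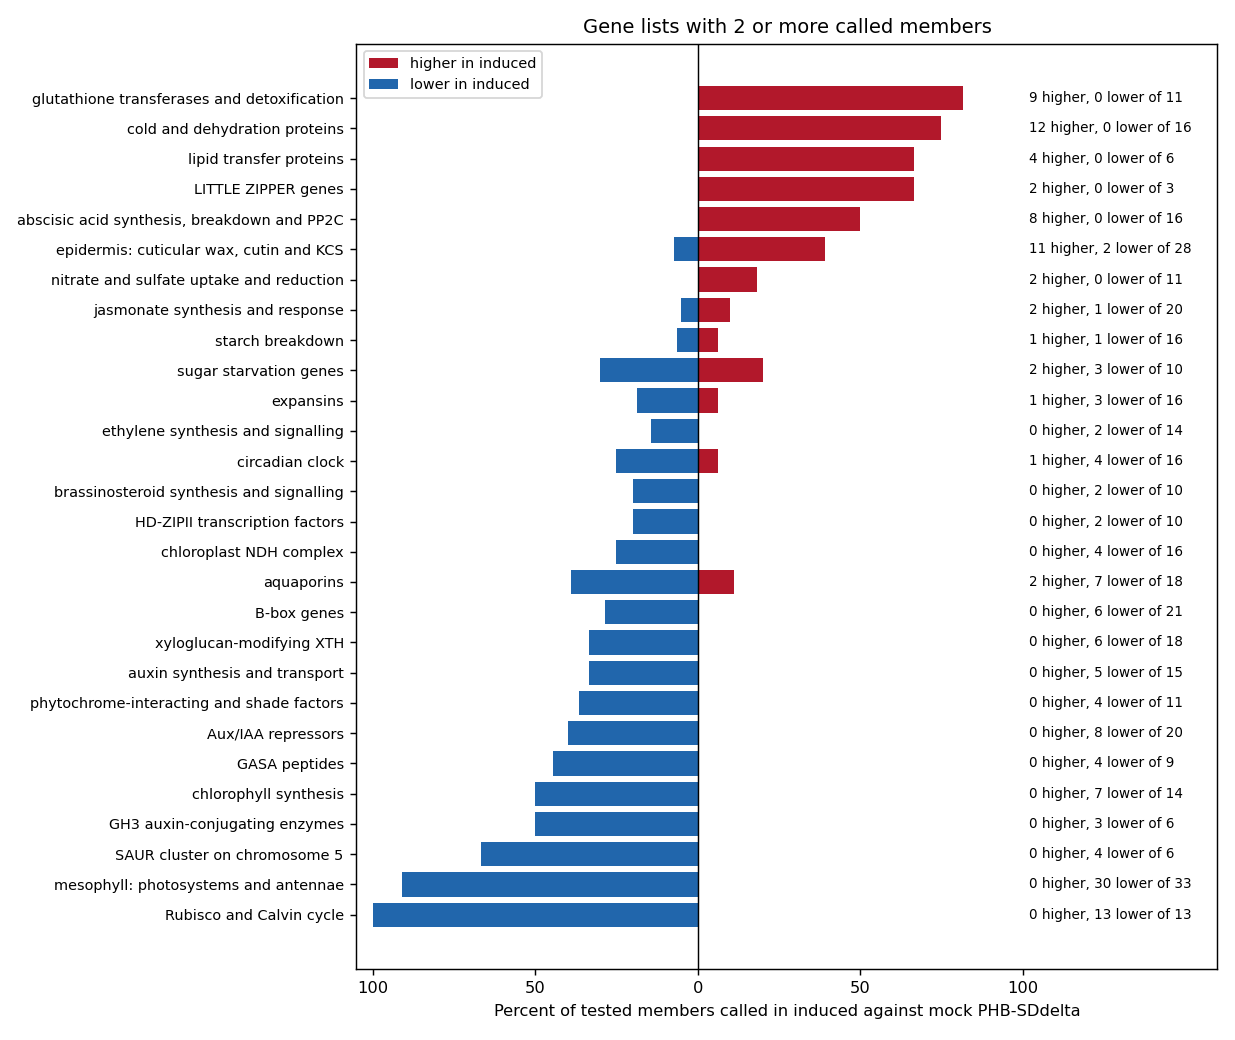
Percent of tested members of each gene list called in induced against mock PHB-SDdelta seedlings (3 libraries each), with higher members to the right in red and lower members to the left in blue, and counts at the right edge. Lists with 2 or more called members are shown. The 13 Rubisco and Calvin cycle genes were all lower and 12 of 16 cold and dehydration genes were higher, against 3.44% lower and 3.59% higher among all genes tested.

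PHB (AT2G34710, chromosome 2, 14639323 to 14644355, minus strand, TAIR10.1) was the gene meant to be induced. It had 68.7, 77.1 and 49.9 CPM in induced PHB-SDdelta seedlings, against 12.02, 17.42 and 17.7 CPM in mock seedlings, and the libraries of the 2 groups did not overlap. This rise (log2 fold change 2.06 ± 0.49 (SE), adjusted p 0.00279) goes with the label. The tags lie at the 3′ end, outside the modified part, so they neither show the modification nor separate the transgene from the resident gene. With the vector not given, whether transgene transcripts end in the 3′ end of PHB, and so count as PHB, is not known. PHB seedlings had 204, 258 and 98.03 CPM when induced and 16.97, 13.6 and 13.996 CPM in mock, and the responses of PHB-SDdelta and PHB differed by -1.59 ± 0.67 (SE) on the log2 scale, adjusted p 0.751, which did not pass the test. HD-ZIPIII mRNAs are known as targets of miR165, and the microRNA and its best match in the coding sequence of PHB are given from RefSeq's TAIR10.1 annotation. Capitals mark the seed (bases 2 to 8) in the microRNA and every base that pairs with it in the site.
miR165a-3p: uCGGACCAggcuucauccccc
PHB site: uuGGGAUGAAGCCUGGUCCGg
The site covers bases 590 to 610 of the 2559 coding bases of PHB and spans 1 intron at chr2:14642530-14642666 on the minus strand, with 3 mismatches to the microRNA. The labels do not say whether the transgene carries this site, and the 3′ tags do not read it.

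ZPR1 (AT2G45450, chromosome 2, 18733275 to 18734341, minus strand), a LITTLE ZIPPER gene, reached 647, 367 and 294 CPM in induced PHB-SDdelta seedlings, against 25.02, 18.8 and 33.1 CPM in mock seedlings. It was higher in every induced library (log2 fold change 4.09 ± 0.34 (SE), adjusted p 2.05e-14), and its response exceeded that of CNA-SDdelta by 3.91 ± 0.45 (SE) on the log2 scale, adjusted p 1.57e-08. In CNA-SDdelta it had 20.6, 21.7 and 22.1 CPM in induced and 22.3, 16.9 and 17.5 CPM in mock seedlings, which overlap. EdgeR called 0 of the 5 HD-ZIPIII genes in CNA-SDdelta, so a rise of CNA itself was not detected there. The summed level of these 5 lay between 52.5 and 63.9 CPM in induced and between 23.5 and 54.2 CPM in mock CNA-SDdelta libraries, which overlap. This sum does not show the level of CNA alone. With the vector not given, whether tags of the CNA-SDdelta transgene count as CNA is not known either. These values thus do not show whether the transgene was induced. ZPR4 (AT2G36307) had 112, 98.6 and 52.2 CPM in induced and 16.2, 5.71 and 19.8 CPM in mock PHB-SDdelta seedlings. That rise also passed the test (log2 fold change 2.65 ± 0.47 (SE), adjusted p 3.49e-05), as did its difference from the CNA-SDdelta response (3.21 ± 0.69 (SE) on the log2 scale, adjusted p 0.00437), a call lost without CNA-SDdelta mock replicate 3 (adjusted p 0.0687). ZPR3 had 12.5, 8.98 and 15.1 CPM in induced and 4.39, 6.57 and 0.62 CPM in mock PHB-SDdelta seedlings, without overlap, but did not pass (log2 fold change 1.64 ± 0.94 (SE), adjusted p 0.431).

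Set against induced PHB, induced PHB-SDdelta seedlings had less ZPR1 and ZPR4. Induced PHB seedlings held 1219, 1043 and 1297 CPM of ZPR1 (PHB-SDdelta minus PHB: -1.44 ± 0.30 (SE) on the log2 scale, adjusted p 0.00563). For ZPR4 they held 356, 321 and 383 CPM (-2.01 ± 0.44 (SE) on the log2 scale, adjusted p 0.0113). ZPR3 stood at 60.4, 78.3 and 73.02 CPM in induced PHB (-2.53 ± 0.93 (SE) on the log2 scale, adjusted p 0.308). These 3 genes were thus highest in induced PHB, with induced PHB-SDdelta between it and every mock group shown. The differences between the 2 responses, which take the mock levels into account, did not pass for ZPR1 (-1.37 ± 0.43 (SE) on the log2 scale, adjusted p 0.395) or ZPR4 (-2.14 ± 0.64 (SE) on the log2 scale, adjusted p 0.329). Neither did that of ZPR3 (-3.14 ± 1.32 (SE) on the log2 scale, adjusted p 0.733). PHB itself had a lower mean in induced PHB-SDdelta than in induced PHB, without passing (-1.52 ± 0.47 (SE) on the log2 scale, adjusted p 0.159), and its part in the ZPR levels was not tested.

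**Figure D2:**
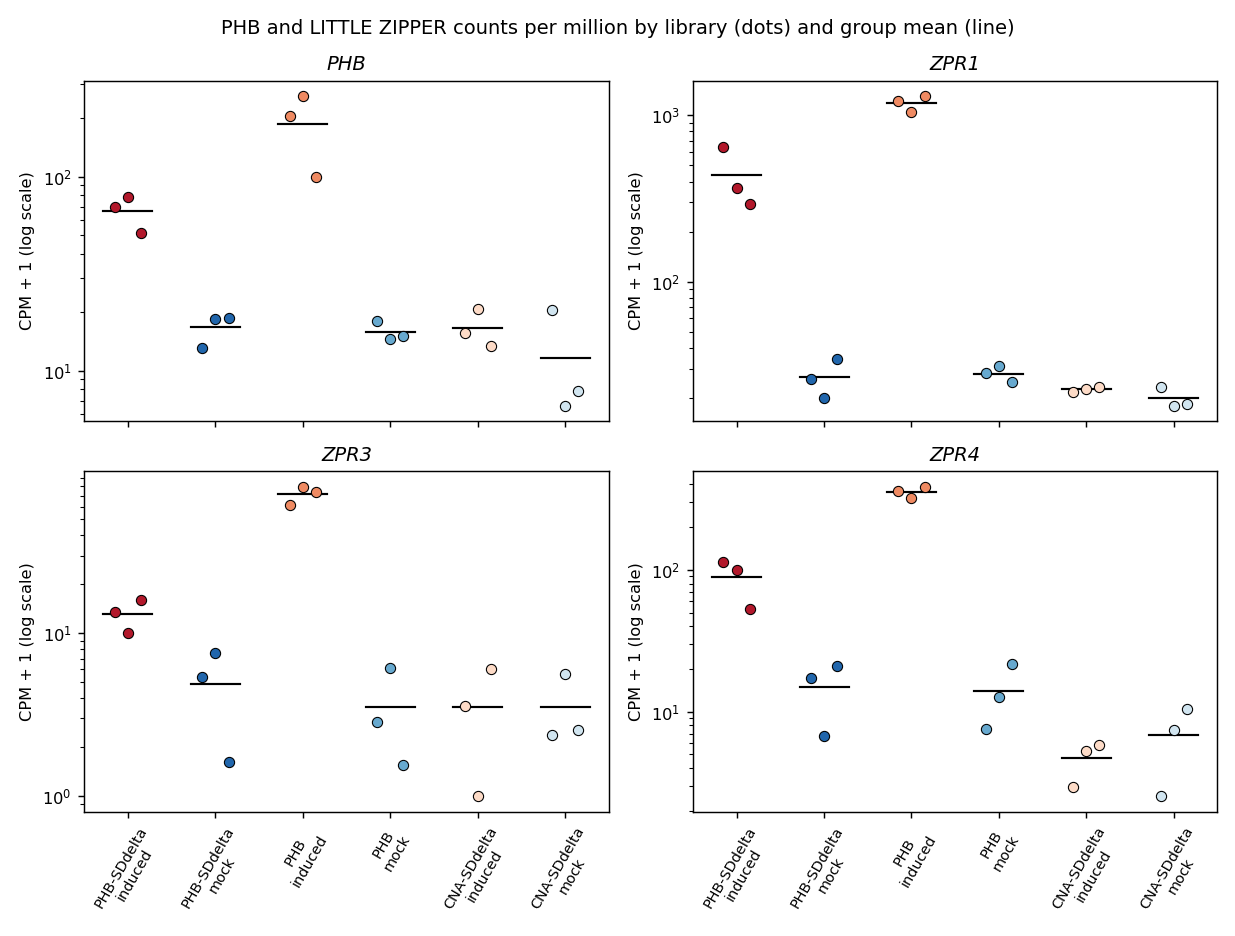
CPM + 1 on a log scale for PHB, ZPR1, ZPR3 and ZPR4 in each library (dots) of induced and mock PHB-SDdelta, PHB and CNA-SDdelta seedlings, with group means (lines). ZPR1 had 294 to 647 CPM in induced PHB-SDdelta, above all its mock libraries and below the 3 induced PHB libraries.

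The other 4 HD-ZIPIII genes were not called by edgeR in PHB-SDdelta, and DESeq2 called none of them either. PHAVOLUTA (PHV), the closest relative of PHB, had 18.21, 11.4 and 21.8 CPM in induced and 6.01, 18.6 and 21.996 CPM in mock seedlings, which overlap (log2 fold change 0.15 ± 0.58 (SE), adjusted p 0.969). CNA had 15.1, 25.3 and 15.5 CPM in induced and 23.1, 19.1 and 34.7 CPM in mock seedlings, which overlap too (log2 fold change -0.46 ± 0.42 (SE), adjusted p 0.743). HB8, a vascular member, had 4.12, 6.43 and 0.311 CPM in induced and 8.61, 15.4 and 13.6 CPM in mock seedlings (log2 fold change -1.78 ± 0.94 (SE), adjusted p 0.364). REVOLUTA (REV) stayed below 13 CPM in all 6 libraries.

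Of 10 HD-ZIPII genes tested, relatives that act in shade and auxin responses, 2 fell and kept their call with any 1 library left out. HAT1 had 5.04, 9.83 and 9.48 CPM in induced and 51.8, 74.5 and 45.2 CPM in mock PHB-SDdelta seedlings (log2 fold change -2.82 ± 0.62 (SE), adjusted p 0.000977). HAT2 had 15.3, 18.21 and 22.7 CPM in induced and 88.05, 75.7 and 104 CPM in mock seedlings and fell as well (log2 fold change -2.25 ± 0.54 (SE), adjusted p 0.00278). Of 12 abaxial polarity genes tested, edgeR called 0, with 1 at an unadjusted p under 0.05 and 1 called by DESeq2.

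Of 16 tested genes for cold and dehydration proteins 12 rose, all 12 kept their call when any 1 PHB-SDdelta library was left out, and the list's median log2 fold change was 4.66 against 0.07 over all genes tested. KIN1 (AT5G15960), a small protein of cold and drought responses, had 5314, 4612 and 3261 CPM in induced PHB-SDdelta seedlings, against 50.04, 59.1 and 42.1 CPM in mock seedlings (log2 fold change 6.44 ± 0.36 (SE), adjusted p 2.37e-21). KIN2, its neighbour and near-identical paralog, with which it may share reads, had 10435, 8189 and 7836 CPM in induced and 648, 749 and 550.2 CPM in mock seedlings (log2 fold change 3.76 ± 0.19 (SE), adjusted p 8.85e-23). The groups did not overlap for these genes.

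RAB18, a dehydrin induced by abscisic acid, had 2871, 5158 and 4685 CPM in induced and 131, 142 and 98.5 CPM in mock PHB-SDdelta seedlings (log2 fold change 5.09 ± 0.42 (SE), adjusted p 3.17e-14). RD29A, a marker of cold and drought signalling, rose to 2511, 2626 and 2349.6 CPM in induced seedlings, against 86.7, 85.1 and 70.01 CPM in mock (log2 fold change 4.95 ± 0.32 (SE), adjusted p 2.17e-18). RD29B, its abscisic acid-dependent neighbour, held 1809, 2276 and 1223 CPM in induced and 61.7, 70.5 and 50.8 CPM in mock seedlings (log2 fold change 4.86 ± 0.34 (SE), adjusted p 5.21e-17). The dehydrins LTI30 (log2 fold change 4.51 ± 0.25 (SE), adjusted p 1.25e-21) and ERD10 (log2 fold change 4.05 ± 0.28 (SE), adjusted p 1.35e-17) rose, as did COR47 (2.58 ± 0.21), LEA14 (3.41 ± 0.24) and ERD14 (0.88 ± 0.19, each a log2 fold change with its SE). COR15A, a chloroplast protein that protects membranes in freezing, had 701, 590.4 and 326 CPM in induced and 19.01, 27.1 and 11.2 CPM in mock seedlings (log2 fold change 4.82 ± 0.51 (SE), adjusted p 9.28e-11). The 4 members that were not called were COR413IM1 and the cold regulators CBF1, CBF2 and CBF3. CBF2 had 11.5, 11.7 and 11.04 CPM in induced and 9.91, 14.3 and 14.3 CPM in mock seedlings, and the other 2 stayed below 4 CPM in every library.

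Members of this list also rose in other lines. It had 12 of 16 members higher in PHB and 12 of 16 in CNA-SDdelta. Over all genes tested, 9.43% were called in PHB (4.44% higher and 4.99% lower) and 4.8% in CNA-SDdelta (2.71% higher and 2.09% lower). Each of the 12 called in PHB-SDdelta had a higher induced than mock mean in at least 6 of the other 7 lines. The response of PHB-SDdelta exceeded that of CNA-SDdelta for 5 of 16 members (0.45% of all genes tested) and the mean of the other 7 lines for 8 of 16 (0.772%), with COR413IM1 below it. Against PHB edgeR called 0 of 16, with 5 at an unadjusted p under 0.05 and 0 by DESeq2. The mock levels differ between the lines: RAB18 had 5198, 3886 and 2797 CPM in induced and 2243, 2462 and 2450.1 CPM in mock CNA-SDdelta seedlings, and COR15A had 1437, 1715 and 1754 CPM in induced and 1058, 1538 and 1698 CPM in mock CNA-SDdelta seedlings. For RAB18 the induced libraries of PHB-SDdelta and CNA-SDdelta overlap and the mock libraries do not, beside a difference between the responses of 4.36 ± 0.53 (SE) on the log2 scale, adjusted p 6.9e-08.

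**Figure D3:**
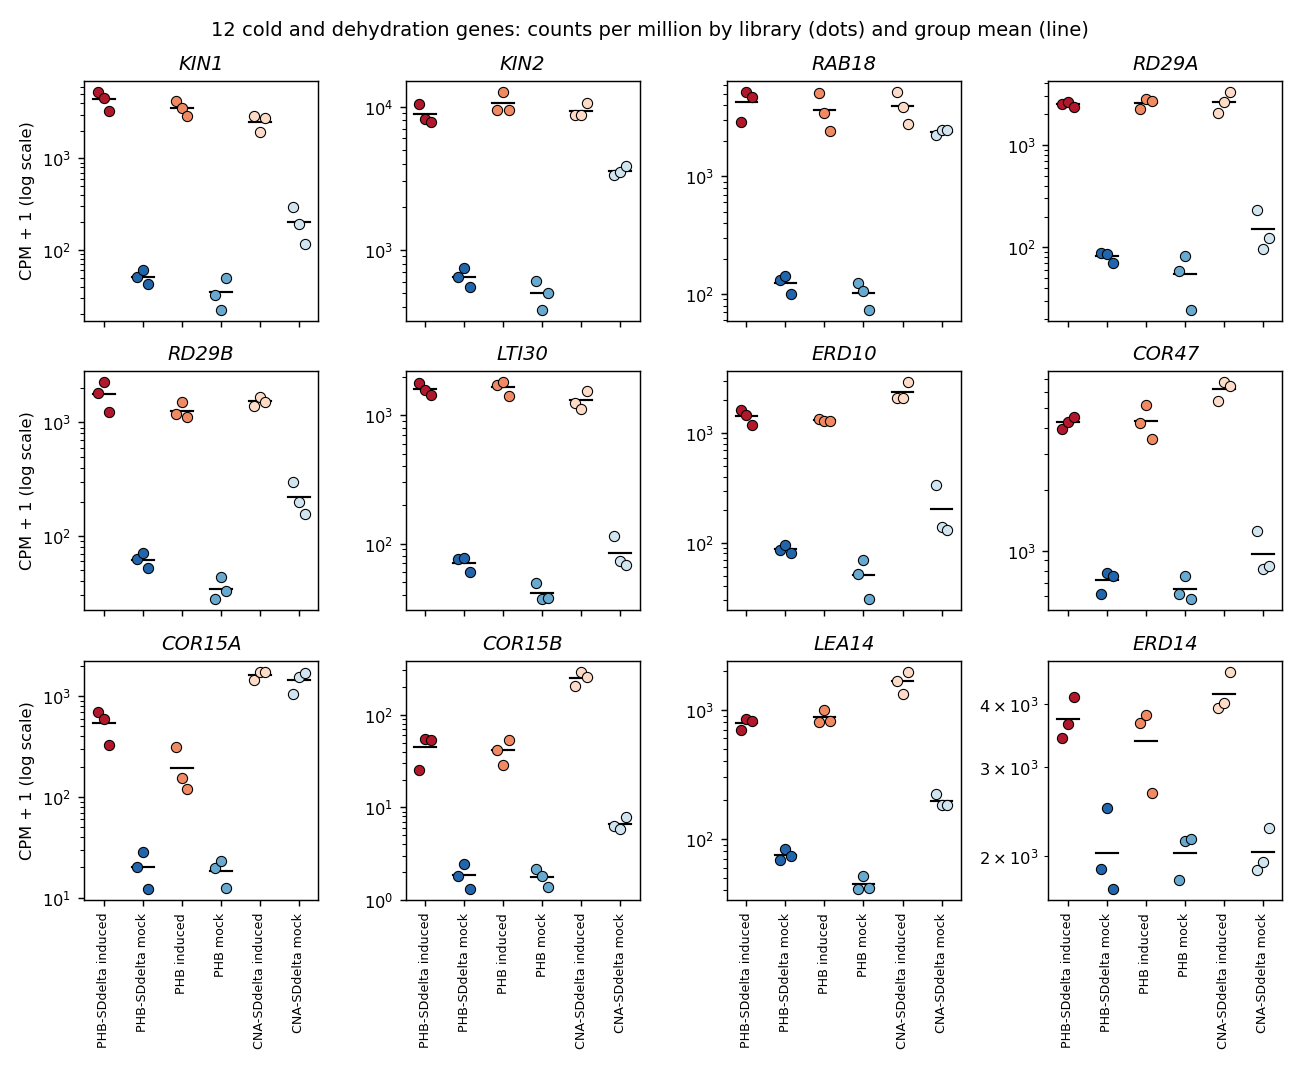
CPM + 1 on a log scale for the 12 called cold and dehydration genes in each library (dots) of induced and mock PHB-SDdelta, PHB and CNA-SDdelta seedlings, with group means (lines). Induced PHB-SDdelta libraries lie above the mock ones for all 12 genes, and mock CNA-SDdelta libraries of RAB18, COR15A and KIN2 lie above the mock libraries of the other 2 lines.

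The 250 bases before the annotated gene start of 3 of these genes are shown because 2 short DNA words, ACGTG (the core of the abscisic acid-responsive element) and CCGAC (the core of the dehydration-responsive element), were searched on both strands; matches are in capitals. Sequences are 5′ to 3′ on the gene's strand, from RefSeq's TAIR10.1, at chr5:26519448-26519697 (minus strand) for RAB18, chr5:21236771-21237020 (plus strand) for RD29B and chr3:18940393-18940642 (plus strand) for LTI30.
RAB18: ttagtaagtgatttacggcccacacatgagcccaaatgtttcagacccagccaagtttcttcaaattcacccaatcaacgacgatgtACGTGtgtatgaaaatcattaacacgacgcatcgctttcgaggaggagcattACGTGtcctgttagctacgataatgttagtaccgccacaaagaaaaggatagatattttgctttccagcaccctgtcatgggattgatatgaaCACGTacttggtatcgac
RD29B: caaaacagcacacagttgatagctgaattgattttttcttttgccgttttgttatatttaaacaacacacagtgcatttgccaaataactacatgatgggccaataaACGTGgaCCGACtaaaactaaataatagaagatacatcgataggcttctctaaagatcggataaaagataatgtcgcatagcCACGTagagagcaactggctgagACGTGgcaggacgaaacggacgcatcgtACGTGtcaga
LTI30: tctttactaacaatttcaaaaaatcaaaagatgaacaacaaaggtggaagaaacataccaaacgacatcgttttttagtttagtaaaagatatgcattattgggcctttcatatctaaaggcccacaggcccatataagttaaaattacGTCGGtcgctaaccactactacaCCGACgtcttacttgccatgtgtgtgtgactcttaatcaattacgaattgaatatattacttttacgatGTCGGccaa
RAB18 holds 3 matches to ACGTG, RD29B holds 4 to ACGTG and 1 to CCGAC, and LTI30 holds 3 to CCGAC. Of the 16 cold and dehydration windows 9 (56.25%) hold ACGTG, against 24.01% of 18890 windows of genes tested, and 4 (25%) hold CCGAC, against 13.1%. A match describes the sequence and is not a binding site. The word ATNATTAC, the core of the palindrome bound by HD-ZIPIII proteins, is in 8.37% of all windows and was not matched in those of ZPR1, ZPR3 and ZPR4.

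Abscisic acid is the hormone of drought responses, and 8 of 16 tested genes for its synthesis, breakdown and type 2C phosphatases (PP2C, which hold the signal in check) rose in PHB-SDdelta. NCED3, the rate-limiting step of its synthesis under drought, had 37.2, 41.2 and 19.9 CPM in induced and 7.31, 4.85 and 6.20 CPM in mock seedlings (log2 fold change 2.41 ± 0.49 (SE), adjusted p 0.00031). CYP707A1, which breaks the hormone down, had 29.7, 26.95 and 17.41 CPM in induced and 1.46, 3.71 and 0.31 CPM in mock seedlings (log2 fold change 3.75 ± 0.69 (SE), adjusted p 5.74e-05). Genes of synthesis, breakdown and feedback were among those that rose. The phosphatase HAI1 rose to 165.4, 175 and 96.99 CPM in induced seedlings, against 12.5, 18.6 and 21.996 CPM in mock (log2 fold change 3.06 ± 0.35 (SE), adjusted p 1.3e-09), and AHG3 (1.44 ± 0.23), ABI1 (1.35 ± 0.24) and ABI2 (1.90 ± 0.43) rose as well. The list had 9 of 16 members higher in PHB and 4 of 16 in CNA-SDdelta. HAB1 lost its call without induced replicate 1 (adjusted p 0.0871) and mock replicate 2 (adjusted p 0.0894), and HAB2 without mock replicate 1 (adjusted p 0.0539).

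Detoxification genes rose in 9 of 11 tested. The glutathione transferase GSTF8 had 1352, 1547 and 1343 CPM in induced and 245, 234 and 287 CPM in mock PHB-SDdelta seedlings (log2 fold change 2.47 ± 0.21 (SE), adjusted p 1.44e-13). GSTU24, which conjugates foreign compounds, had 496, 302 and 408 CPM in induced and 32.8, 39.7 and 36.2 CPM in mock seedlings (log2 fold change 3.47 ± 0.30 (SE), adjusted p 1.77e-13). The cytochrome P450 CYP81D8 (log2 fold change 3.90 ± 0.53 (SE), adjusted p 1.26e-07), the auxin-modifying glycosyltransferase UGT74E2 (log2 fold change 2.43 ± 0.33 (SE), adjusted p 1.15e-07) and GSTU19 (log2 fold change 1.39 ± 0.20 (SE), adjusted p 4.99e-07) rose too. OPR1 lost its call without induced replicate 1 (adjusted p 0.13) and mock replicate 2 (adjusted p 0.0869). In the other lines 9 of 11 rose in PHB and 9 of 11 in CNA-SDdelta, and GSTU24 and CYP81D8 had a higher induced than mock mean in 7 of the other 7 lines.

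Surface lipid genes rose in part. Of 28 tested genes for wax, cutin and epidermal identity, 11 rose and 2 fell, and 7 of these 13 kept their call with any 1 library left out. KCS1, which elongates fatty acids for wax, had 196, 213 and 201 CPM in induced and 49.4, 59.1 and 57.3 CPM in mock seedlings (log2 fold change 1.88 ± 0.23 (SE), adjusted p 5.42e-09). KCS3 (log2 fold change 1.94 ± 0.26 (SE), adjusted p 9.73e-08), CER3, a wax synthesis gene (log2 fold change 1.47 ± 0.29 (SE), adjusted p 0.000184), and LTPG1, a surface lipid transfer protein (log2 fold change 1.59 ± 0.22 (SE), adjusted p 1.16e-07), followed. Of the epidermal regulators, PDF2 fell (log2 fold change -0.91 ± 0.29 (SE), adjusted p 0.0447). ATML1 had 42.3, 84.98 and 62.6 CPM in induced and 89.999, 127 and 127 CPM in mock seedlings and did not pass the test (log2 fold change -0.86 ± 0.30 (SE), adjusted p 0.0716). PDF2 lost its call without induced replicates 1 and 3 (adjusted p 0.237 and 0.145) and mock replicates 1 and 2 (adjusted p 0.164 and 0.129). In PHB 11 members rose and 5 fell, and in CNA-SDdelta 15 rose.

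Of 6 lipid transfer proteins, 4 rose. LTP3 had 189, 199 and 354 CPM in induced PHB-SDdelta seedlings, against 11.9, 15.4 and 1.24 CPM in mock (log2 fold change 4.67 ± 0.71 (SE), adjusted p 1.4e-06). LTP1 had 1745, 2070.03 and 1749 CPM in induced and 690.1, 815 and 566 CPM in mock (log2 fold change 1.43 ± 0.19 (SE), adjusted p 6.91e-08), and LTP2, a close paralog that may share reads with it, rose by 1.17 ± 0.24 (SE) on the log2 scale, adjusted p 0.00042. The LTP3 response exceeded that of CNA-SDdelta by 4.52 ± 0.90 (SE) on the log2 scale, adjusted p 0.00173. The same difference of LTP1 (1.13 ± 0.26 (SE) on the log2 scale, adjusted p 0.0113) passed too, but was lost without CNA-SDdelta induced replicates 1 and 2 (adjusted p 0.0715 and 0.0534), CNA-SDdelta mock replicate 3 (adjusted p 0.0602), PHB-SDdelta induced replicate 2 (adjusted p 0.0575) and PHB-SDdelta mock replicate 3 (adjusted p 0.0739). LTP4 lost its call without mock replicates 1 and 3 (adjusted p 0.0893 and 0.0914). Summed over the 6 genes, induced libraries held 3381 to 4050 CPM in PHB-SDdelta and 3831 to 4116 CPM in CNA-SDdelta, which overlap. Mock libraries held 1275 to 1888 CPM in PHB-SDdelta and 2843 to 3098 CPM in CNA-SDdelta, which do not.

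Photosynthesis genes fell: 30 of 33 tested nuclear genes for the photosystems and their light-harvesting antennae, at a list median log2 fold change of -1.14, and 26 of the 30 kept their call with any 1 library left out. LHCB4.2, an antenna protein of photosystem II, had 172, 221 and 262 CPM in induced PHB-SDdelta seedlings, against 992, 995 and 875 CPM in mock (log2 fold change -2.13 ± 0.20 (SE), adjusted p 1.69e-12). PSAD1, a subunit of photosystem I, had 227, 225 and 265 CPM in induced and 1011, 794 and 797 CPM in mock seedlings (log2 fold change -1.86 ± 0.23 (SE), adjusted p 1.19e-08). No library of one group reached the other for these genes. LHCB2.1 (log2 fold change -1.88 ± 0.21 (SE), adjusted p 5.09e-10) and LHCB2.2 (log2 fold change -2.15 ± 0.25 (SE), adjusted p 1.89e-09), near-identical copies whose reads may be split, fell, as did LHCA4 (log2 fold change -1.47 ± 0.19 (SE), adjusted p 1.67e-08).

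The summed level of these 33 genes, which also mark mesophyll cells, lay between 19203 and 23696 CPM in induced and between 42035 and 48886 CPM in mock PHB-SDdelta libraries. The falls were shared: 32 of 33 fell in PHB and 24 of 33 in CNA-SDdelta. The levels were not shared by CNA-SDdelta, which held 50730 to 60008 CPM in induced and 82568 to 108805 CPM in mock libraries. Its induced libraries thus lay above the mock libraries of PHB-SDdelta. PHB held 20085 to 24154 CPM in induced and 48698.5 to 55866 CPM in mock libraries. EdgeR called no member's response different from that of PHB or of CNA-SDdelta (0 of 33 each, with 7 and 9 at an unadjusted p under 0.05 and 0 by DESeq2 in both).

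All 13 genes of Rubisco and the Calvin cycle, which fix carbon dioxide, fell. RBCS1B, a Rubisco small subunit with near-identical copies, had 40.3, 71.9 and 104 CPM in induced and 633, 533 and 478 CPM in mock seedlings (log2 fold change -2.93 ± 0.35 (SE), adjusted p 4.11e-09). GAPA2, a glyceraldehyde phosphate dehydrogenase subunit, had 163, 231 and 221 CPM in induced and 896, 720.2 and 869.6 CPM in mock (log2 fold change -2.01 ± 0.22 (SE), adjusted p 2.35e-10), and phosphoribulokinase (PRK) had 82.6, 92.9 and 73.7 CPM in induced and 391, 326 and 375 CPM in mock (log2 fold change -2.13 ± 0.29 (SE), adjusted p 8.06e-08). SBPASE lost its call without mock replicate 1 (adjusted p 0.053). The list fell in full in PHB too (13 of 13), and in CNA-SDdelta by 9 of 13. Its summed level was 4082 to 5835 CPM in induced and 10494 to 14756 CPM in mock PHB-SDdelta libraries. In CNA-SDdelta it was 10996 to 12913 CPM in induced and 20480 to 21629 CPM in mock libraries.

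Chlorophyll synthesis fell in 7 of 14 tested genes, 4 of them in every fit that left out 1 library. GUN4, which activates the first chlorophyll-specific enzyme, had 67.01, 69.1 and 52.7 CPM in induced and 243, 201 and 234 CPM in mock seedlings (log2 fold change -1.84 ± 0.28 (SE), adjusted p 1.25e-06). Induced PHB seedlings had 36.8, 25.1 and 9.003 CPM of GUN4 (PHB-SDdelta minus PHB: 1.35 ± 0.28 (SE) on the log2 scale, adjusted p 0.00713). CRD1 (log2 fold change -1.16 ± 0.18 (SE), adjusted p 2.95e-06), CHLM (log2 fold change -1.17 ± 0.24 (SE), adjusted p 0.000264) and CHLH, a subunit of the enzyme that GUN4 activates (log2 fold change -1.01 ± 0.25 (SE), adjusted p 0.00437), fell as well. Of 16 tested genes for the chloroplast NDH complex 4 fell, and 1 of them, NDHM, kept its call throughout. It had 2.41, 8.74 and 4.82 CPM in induced and 54.9, 56.8 and 30.98 CPM in mock seedlings (log2 fold change -3.16 ± 0.76 (SE), adjusted p 0.00305).

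**Figure D4:**
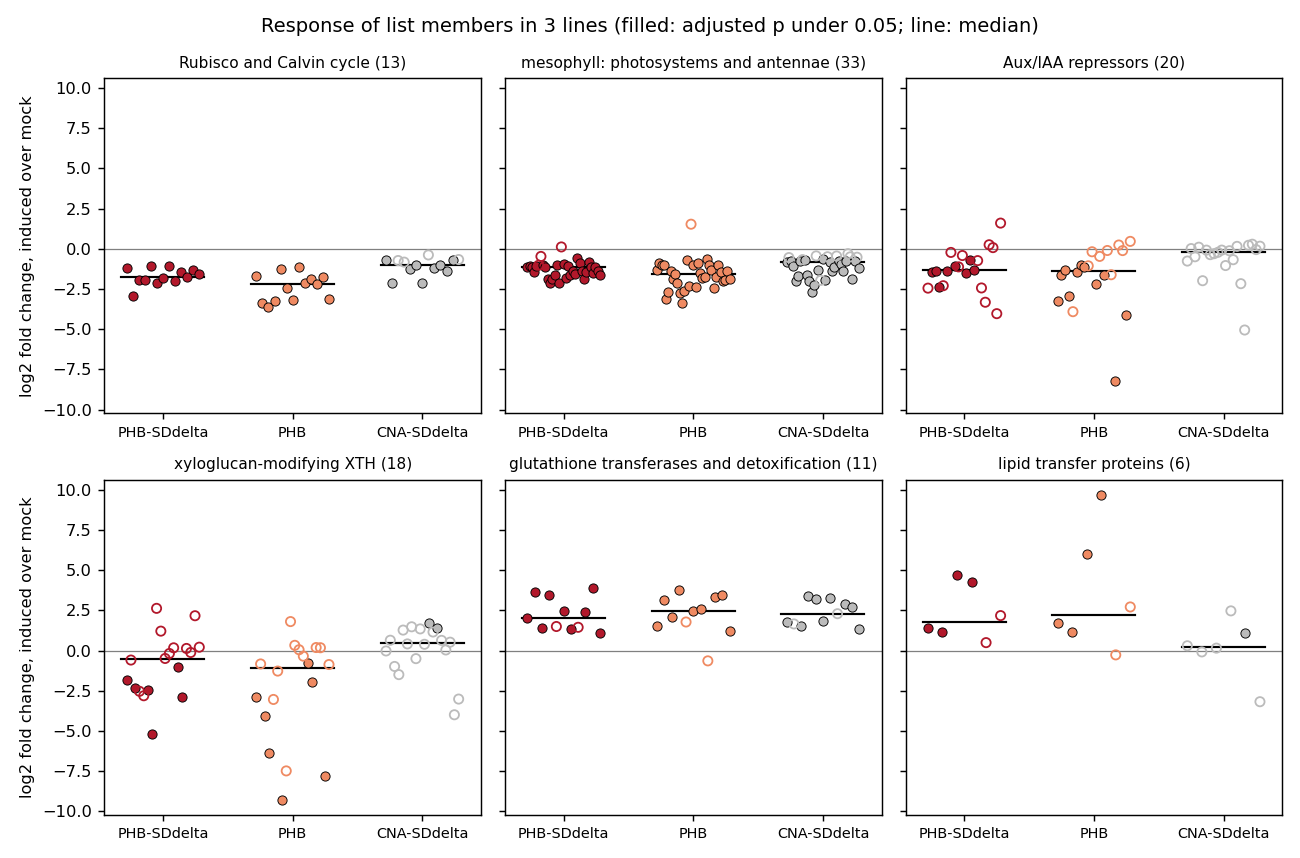
Log2 fold change of each tested member (dots, filled where adjusted p is under 0.05) in induced against mock seedlings of PHB-SDdelta, PHB and CNA-SDdelta, for 6 gene lists, with the list median (line) and member count. Aux/IAA genes had a median of -1.34 in PHB-SDdelta and -1.37 in PHB, against -0.17 in CNA-SDdelta; values past 5 in size include genes with no counts in 1 group, where the size depends on the prior count.

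Auxin response genes fell in part. Of 20 Aux/IAA genes, auxin-induced repressors of auxin signalling, 8 fell in PHB-SDdelta, 11 fell in PHB, and edgeR called 0 in CNA-SDdelta, with 3 at an unadjusted p under 0.05. IAA7 had 152, 135 and 145 CPM in induced and 375, 383 and 359.99 CPM in mock PHB-SDdelta seedlings (log2 fold change -1.37 ± 0.21 (SE), adjusted p 1.33e-06). IAA4 had 33.8, 40.4 and 47.9 CPM in induced and 231, 210.2 and 201 CPM in mock (log2 fold change -2.40 ± 0.42 (SE), adjusted p 3.15e-05). These were also the 2 Aux/IAA genes whose response lay below that of CNA-SDdelta. The difference was -1.29 ± 0.29 (SE) on the log2 scale, adjusted p 0.00698 for IAA7, lost without CNA-SDdelta mock replicate 1 (adjusted p 0.055). For IAA4 it was -2.50 ± 0.58 (SE) on the log2 scale, adjusted p 0.0106, lost without PHB-SDdelta induced replicate 1 (adjusted p 0.0502). IAA2 (log2 fold change -1.43 ± 0.29 (SE), adjusted p 0.000377), IAA14 (log2 fold change -1.48 ± 0.36 (SE), adjusted p 0.00338) and IAA9 (log2 fold change -1.07 ± 0.22 (SE), adjusted p 0.000284) fell too, and IAA3 was called but lost its call without induced replicate 3 (adjusted p 0.0938).

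Some auxin carriers fell. The efflux carrier PIN3 had 71.7, 66.6 and 85.3 CPM in induced and 339, 319.6 and 332 CPM in mock seedlings (log2 fold change -2.15 ± 0.24 (SE), adjusted p 6.66e-10), with a lower response than in CNA-SDdelta (-1.84 ± 0.33 (SE) on the log2 scale, adjusted p 0.000364). PIN7 (log2 fold change -2.73 ± 0.57 (SE), adjusted p 0.000493) and the influx carriers AUX1 (log2 fold change -1.70 ± 0.27 (SE), adjusted p 4.49e-06) and LAX1 (log2 fold change -1.63 ± 0.25 (SE), adjusted p 1.37e-06) also fell. PIN4 lost its call without induced replicate 3 (adjusted p 0.0654). In all, 5 of 15 genes of auxin synthesis and transport fell, against 6 of 15 in PHB and 2 of 15 in CNA-SDdelta.

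GH3 enzymes attach amino acids to auxin, and 3 of 6 fell. GH3.6 had 12.6, 13.5 and 17.3 CPM in induced and 55.9, 52.3 and 74.04 CPM in mock seedlings (log2 fold change -2.07 ± 0.36 (SE), adjusted p 2.09e-05), and GH3.17 fell as well (log2 fold change -2.004 ± 0.42 (SE), adjusted p 0.00042). GH3.5 lost its call without induced replicate 1 (adjusted p 0.087) and mock replicate 3 (adjusted p 0.124). Of the 6 SAUR genes on chromosome 5, short auxin-induced growth genes that are near-identical to each other, 4 were called lower, but none kept its call in every fit. SAUR21 had 0.344, 0.486 and 0.311 CPM in induced and 9.58, 14.9 and 11.2 CPM in mock seedlings (log2 fold change -4.89 ± 1.30 (SE), adjusted p 0.00943), and lost its call without induced replicates 1 and 3 (adjusted p 0.0612 and 0.0582). SAUR19 lost it without induced replicates 1, 2 and 3 (adjusted p 0.133, 0.122 and 0.0655) and mock replicate 2 (adjusted p 0.111). SAUR22 lost it without induced replicates 1, 2 and 3 (adjusted p 0.078, 0.0719 and 0.0649), and SAUR23 without induced replicates 1 and 2 (adjusted p 0.216 and 0.209) and mock replicates 1, 2 and 3 (adjusted p 0.0639, 0.124 and 0.0768).

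GASA1, a gibberellin-regulated cysteine-rich peptide, had 74.8, 130.4 and 100.1 CPM in induced and 1284, 1549 and 2471 CPM in mock PHB-SDdelta seedlings (log2 fold change -4.12 ± 0.38 (SE), adjusted p 8.9e-13). GASA14 fell as well, with 2.75, 7.41 and 4.51 CPM in induced and 51.5, 47.98 and 71.3 CPM in mock (log2 fold change -3.54 ± 0.65 (SE), adjusted p 5.59e-05). These were 2 of 4 GASA genes called lower among 9 tested. AT2G14900 lost its call without induced replicates 1, 2 and 3 (adjusted p 0.0641, 0.0547 and 0.153) and mock replicates 2 and 3 (adjusted p 0.0501 and 0.0796). AT1G22690 lost it without induced replicates 1 and 3 (adjusted p 0.101 and 0.126) and mock replicates 1 and 3 (adjusted p 0.0605 and 0.0852). The brassinosteroid regulator BES1 (log2 fold change -1.26 ± 0.24 (SE), adjusted p 0.000134) and the synthesis enzyme CPD (log2 fold change -0.97 ± 0.19 (SE), adjusted p 0.000192) were 2 of 10 brassinosteroid genes that fell. The ethylene-forming oxidase ACO4 fell too (log2 fold change -1.07 ± 0.18 (SE), adjusted p 9.77e-06).

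Xyloglucan links cellulose in growing walls. Among 18 xyloglucan-modifying XTH genes 6 fell, 3 of them in every fit. XTH4 had 119.9, 98.2 and 107 CPM in induced and 349, 505 and 317 CPM in mock seedlings (log2 fold change -1.85 ± 0.25 (SE), adjusted p 1.2e-07), and XTH25 had 2.29, 9.23 and 3.26 CPM in induced and 33.6, 23.99 and 51.4 CPM in mock (log2 fold change -2.87 ± 0.62 (SE), adjusted p 0.000771). The XTH4 response lay below that of CNA-SDdelta (-1.82 ± 0.35 (SE) on the log2 scale, adjusted p 0.000896). XTH7 fell (log2 fold change -2.35 ± 0.54 (SE), adjusted p 0.00164). XTH24 lost its call without induced replicate 1 (adjusted p 0.0721), XTH16 without induced replicates 1 and 3 (adjusted p 0.116 and 0.107) and mock replicate 3 (adjusted p 0.075), and XTH15 without induced replicates 1, 2 and 3 (adjusted p 0.123, 0.12 and 0.203) and mock replicates 2 and 3 (adjusted p 0.128 and 0.251). In CNA-SDdelta 2 XTH genes rose, against 7 that fell in PHB.

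Of 16 expansins, which loosen walls, 3 fell and 1 rose. EXPA8 had 2.98, 5.58 and 8.08 CPM in induced and 60.4, 100.8 and 65.1 CPM in mock seedlings (log2 fold change -3.77 ± 0.58 (SE), adjusted p 1.9e-06), and EXPA1 had 15.9, 29.99 and 61.1 CPM in induced and 147, 217 and 97.6 CPM in mock (log2 fold change -2.11 ± 0.43 (SE), adjusted p 0.000358). The expansin-like gene EXLA1 rose, with 61.2, 64.1 and 51.9 CPM in induced and 17.38, 20.8 and 10.53 CPM in mock (log2 fold change 1.86 ± 0.38 (SE), adjusted p 0.000361). EXPA3 lost its call without induced replicates 1 and 2 (adjusted p 0.113 and 0.153) and mock replicates 1 and 2 (adjusted p 0.0535 and 0.141).

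Of 18 aquaporins, 7 fell and 2 rose. The vacuolar channel TIP2;1 had 516, 728 and 835 CPM in induced and 3496, 3654 and 3440.02 CPM in mock seedlings (log2 fold change -2.35 ± 0.24 (SE), adjusted p 2.22e-11). Its response lay below that of CNA-SDdelta (-1.70 ± 0.32 (SE) on the log2 scale, adjusted p 0.000815). The plasma membrane channels PIP1;5 (log2 fold change -2.50 ± 0.32 (SE), adjusted p 3.53e-08), PIP2;7 (log2 fold change -1.45 ± 0.18 (SE), adjusted p 1.58e-08) and PIP1;2 (log2 fold change -1.10 ± 0.16 (SE), adjusted p 1.04e-06) fell, and PIP1;4 rose (log2 fold change 0.77 ± 0.18 (SE), adjusted p 0.00171). PIP1;3 lost its call without induced replicates 1, 2 and 3 (adjusted p 0.241, 0.0537 and 0.0838) and mock replicates 1, 2 and 3 (adjusted p 0.114, 0.109 and 0.0712) and PIP2;5 without induced replicates 2 and 3 (adjusted p 0.0865 and 0.0622) and mock replicates 1, 2 and 3 (adjusted p 0.131, 0.0527 and 0.073). In PHB 4 fell and 3 rose, and in CNA-SDdelta 3 fell and 1 rose.

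Light and clock regulators fell in part. Of 11 phytochrome-interacting and shade genes 4 fell, among them PIF5, which promotes growth in shade (log2 fold change -1.53 ± 0.24 (SE), adjusted p 4.15e-06), and HY5, which promotes greening (log2 fold change -1.78 ± 0.44 (SE), adjusted p 0.00374). HFR1 fell too (log2 fold change -1.40 ± 0.36 (SE), adjusted p 0.00615), and PAR1 lost its call without induced replicates 1 and 2 (adjusted p 0.0739 and 0.0502) and mock replicate 1 (adjusted p 0.0698). Of 21 B-box genes 6 fell, among them COL2, with 49.1, 41.2 and 48.96 CPM in induced and 234, 203 and 224 CPM in mock seedlings (log2 fold change -2.25 ± 0.33 (SE), adjusted p 8.99e-07). BBX15 (log2 fold change -2.20 ± 0.41 (SE), adjusted p 6.7e-05) and BBX14 (log2 fold change -2.31 ± 0.43 (SE), adjusted p 7.44e-05) also fell. BBX25 lost its call without induced replicates 2 and 3 (adjusted p 0.114 and 0.179) and mock replicates 1 and 3 (adjusted p 0.0755 and 0.0563). Among 16 clock genes the morning genes RVE1 (log2 fold change -1.22 ± 0.28 (SE), adjusted p 0.00204), RVE8 (log2 fold change -0.90 ± 0.20 (SE), adjusted p 0.000882) and LNK2 (log2 fold change -1.09 ± 0.23 (SE), adjusted p 0.00049) fell in every fit. LHY lost its call without induced replicates 1, 2 and 3 (adjusted p 0.15, 0.103 and 0.134) and mock replicates 1 and 2 (adjusted p 0.23 and 0.0879). The evening gene ELF4, which was higher, lost it without induced replicates 2 and 3 (adjusted p 0.0521 and 0.0547) and mock replicates 2 and 3 (adjusted p 0.0871 and 0.118).

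Of 16 tested starch breakdown genes 1 fell and 1 rose, and the other 14 were not called. BAM3, a chloroplast β-amylase that breaks down starch at night, had 21.1, 32.7 and 32.95 CPM in induced and 236, 169.6 and 232 CPM in mock seedlings (log2 fold change -2.88 ± 0.34 (SE), adjusted p 3.62e-09). The stress-induced β-amylase BAM1 had 249, 439 and 278 CPM in induced and 136, 87.4 and 149.9 CPM in mock (log2 fold change 1.37 ± 0.21 (SE), adjusted p 2.18e-06). BAM1 rose more than in CNA-SDdelta (1.39 ± 0.30 (SE) on the log2 scale, adjusted p 0.00363, lost without PHB-SDdelta induced replicate 2 (adjusted p 0.062)) and than the mean of the other 7 lines (1.34 ± 0.23 (SE) on the log2 scale, adjusted p 8.27e-05). Of 10 sugar starvation genes 3 fell, including asparagine synthetase ASN1 (log2 fold change -1.31 ± 0.27 (SE), adjusted p 0.000377) and DIN10 (log2 fold change -1.24 ± 0.22 (SE), adjusted p 2.41e-05), and 2 rose, including the β-glucosidase DIN2 (log2 fold change 1.62 ± 0.30 (SE), adjusted p 7.28e-05). Of 11 tested genes of nitrate and sulfate uptake and reduction 2 were higher and none was called lower. Nitrate reductase NIA1 had 605, 533 and 563 CPM in induced and 109.7, 149 and 47.4 CPM in mock seedlings (log2 fold change 2.47 ± 0.34 (SE), adjusted p 1.93e-07). Its response exceeded the mean of the other 7 lines by 2.49 ± 0.36 (SE) on the log2 scale, adjusted p 5.56e-06. NIA2 was higher by 0.85 ± 0.24 (SE) on the log2 scale, adjusted p 0.0141, but lost its call without induced replicates 1 and 3 (adjusted p 0.0523 and 0.0626) and mock replicates 2 and 3 (adjusted p 0.0703 and 0.0731).

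Several of the 12 largest rises were in genes nearly silent in mock seedlings. AT1G71470, an uncharacterized protein, had 40.1, 34.8 and 23.003 CPM in induced seedlings and no count in any mock library, and was at least 43.1-fold higher (against a floor of 3 counts per library; adjusted p 4.11e-07). The glycosyltransferase UGT73C1 had 29.2, 25.5 and 23.62 CPM in induced and no count in mock, at least 34.5-fold higher (adjusted p 0.00017). ChlAKR, a chloroplast enzyme that reduces reactive carbonyls, had 51.4, 54.1 and 48.3 CPM in induced and 0.162, 0 and 0 CPM in mock seedlings (adjusted p 1.44e-13). Late embryogenesis proteins are made in drying seeds and in drought. Their gene LEA7 had 2451, 4268 and 2282 CPM in induced and 15.3, 33.7 and 17.3 CPM in mock (log2 fold change 7.10 ± 0.58 (SE), adjusted p 2.05e-14), and AT3G02480 had 821, 1659 and 875 CPM in induced and 7.96, 19.1 and 8.67 CPM in mock (log2 fold change 6.57 ± 0.64 (SE), adjusted p 8.85e-12). Both responses exceeded those of CNA-SDdelta, by 3.62 ± 0.66 (SE) on the log2 scale, adjusted p 0.000464 for LEA7 and 5.02 ± 0.76 (SE) on the log2 scale, adjusted p 1.48e-05 for AT3G02480. The calls of ECP63 and UGT76E12, also among the 12 largest rises, were lost without mock replicate 1 (adjusted p 0.0635) for ECP63 and without mock replicates 1, 2 and 3 (adjusted p 0.086, 0.0629 and 0.064) for UGT76E12.

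Among the largest falls, the kinase CIPK20 had 6.53, 5.95 and 2.02 CPM in induced and 88.4, 74.8 and 97.3 CPM in mock seedlings (log2 fold change -4.15 ± 0.56 (SE), adjusted p 1.18e-07). P1R3 had 0.916, 2.19 and 1.71 CPM in induced and 38.2, 33.4 and 39.7 CPM in mock (log2 fold change -4.52 ± 0.84 (SE), adjusted p 7.84e-05). AT1G29500, a SAUR-like gene, had 0.229, 0.85 and 0.933 CPM in induced and 15.6, 23.99 and 16.4 CPM in mock (log2 fold change -4.78 ± 1.07 (SE), adjusted p 0.00125). AT3G19850, a phototropism-related NPH3 family gene (log2 fold change -4.11 ± 0.78 (SE), adjusted p 0.000117), the thionin AT1G66100 (log2 fold change -3.89 ± 0.70 (SE), adjusted p 3.86e-05) and RL5, a RADIALIS-like gene (log2 fold change -3.86 ± 0.91 (SE), adjusted p 0.00226), also fell. CIPK20 was lower in induced than mock means in 7 of the other 7 lines. AT2G34170, also among the 12 largest falls, lost its call without induced replicate 1 (adjusted p 0.0592).

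The response of PHB-SDdelta was set against that of PHB to show where the SDdelta modification goes with a different response. Mean PHB was also lower in induced PHB-SDdelta than in induced PHB, without passing the test. The modification, the PHB level and the line cannot be told apart in this comparison. Of the 1329 genes called in PHB-SDdelta, 982 (73.9%) were called in PHB, which is 55.0% of the 1784 called there, and 978 of the 982 moved the same way; the 2 comparisons share no libraries. EdgeR called the 2 responses different for 21 of 18909 genes (0.111%), with 19 higher (0.1%) and 2 lower (0.0106%) in PHB-SDdelta. The count fell to 10 without replicate 2 of mock PHB, to 10 without replicate 1 and to 11 without replicate 3 of mock PHB-SDdelta, and 7 of the 21 kept their call in all 12 fits that left out 1 library of either line. DESeq2 split its calls into 35 higher and 9 lower.

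GASA1 had the smallest adjusted p of the 21, with 74.8, 130.4 and 100.1 CPM in induced and 1284, 1549 and 2471 CPM in mock seedlings of PHB-SDdelta, against 514, 545 and 503 CPM in induced and 931.4, 951 and 1261 CPM in mock PHB. It was lower in both inductions, and more so in PHB-SDdelta (PHB-SDdelta minus PHB: -3.11 ± 0.48 (SE) on the log2 scale, adjusted p 0.000444). The libraries of induced PHB-SDdelta lay below those of induced PHB (-2.35 ± 0.35 (SE) on the log2 scale, adjusted p 8.17e-05).

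Of the 19 genes whose response was higher in PHB-SDdelta, 18 fell in PHB and 1 was not called there, while in PHB-SDdelta 5 rose, 2 fell and 12 were not called. CASP5, a membrane scaffold of the Casparian strip in the root endodermis, had 10.7, 3.64 and 8.39 CPM in induced and 7.15, 20.3 and 7.13 CPM in mock PHB-SDdelta, which overlap. Induced PHB held no count in any library, compared with 14.9, 34.2 and 21.5 CPM in mock PHB, at least 28.7-fold lower against a floor of 3 counts per library; the 2 responses differed at an adjusted p of 0.00602. AT3G13610, an oxygenase annotated as 2-oxoglutarate- and iron-dependent, had 43.3, 24.2 and 41.5 CPM in induced and 14.1, 15.7 and 4.03 CPM in mock seedlings of PHB-SDdelta, against 15.3, 10.8 and 6.50 CPM in induced and 24.1, 65.7 and 21.5 CPM in mock PHB. It rose in PHB-SDdelta (log2 fold change 1.67 ± 0.40 (SE), adjusted p 0.00262, lost without mock replicate 3 (adjusted p 0.0642)) and fell in PHB (-1.72 ± 0.40, adjusted p 0.00143), a difference of 3.38 ± 0.56 (SE) on the log2 scale, adjusted p 0.00118.

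The extensin-like gene AT1G26250 had 30.9, 20.8 and 33.4 CPM in induced and 16.7, 21.99 and 22.6 CPM in mock PHB-SDdelta, which overlap, against 10.8, 17.2 and 8.002 CPM in induced and 47.2, 121 and 71.1 CPM in mock PHB (a difference of 3.18 ± 0.58 (SE) on the log2 scale, adjusted p 0.00402). The dirigent-like gene AT4G13580 had 33.3, 20.5 and 22.1 CPM in induced and 16.2, 19.99 and 7.13 CPM in mock seedlings of PHB-SDdelta, against 4.15, 2.32 and 6.002 CPM in induced and 19.5, 42.2 and 33.03 CPM in mock PHB (3.78 ± 0.70 (SE) on the log2 scale, adjusted p 0.00402). The germin-like gene GLP4 had 10.54, 10.8 and 18.03 CPM in induced and 4.55, 6.85 and 6.82 CPM in mock seedlings of PHB-SDdelta, against 1.01, 0 and 0 CPM in induced and 7.51, 17.44 and 9.89 CPM in mock PHB (5.72 ± 1.09 (SE) on the log2 scale, adjusted p 0.00584). The size of that difference rests on 1 induced PHB library, since the other 2 held no count, and was 10.51 without it (replicate 1). For all 3, mock PHB libraries lay above all induced PHB libraries. DRT100, a leucine-rich repeat protein, had 7.67, 7.53 and 7.77 CPM in induced and 16.4, 19.4 and 25.7 CPM in mock seedlings of PHB-SDdelta, against 0.251, 0 and 1.000 CPM in induced and 27.8, 37.02 and 60.3 CPM in mock PHB (adjusted p 0.00305 for the difference).

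**Figure D5:**
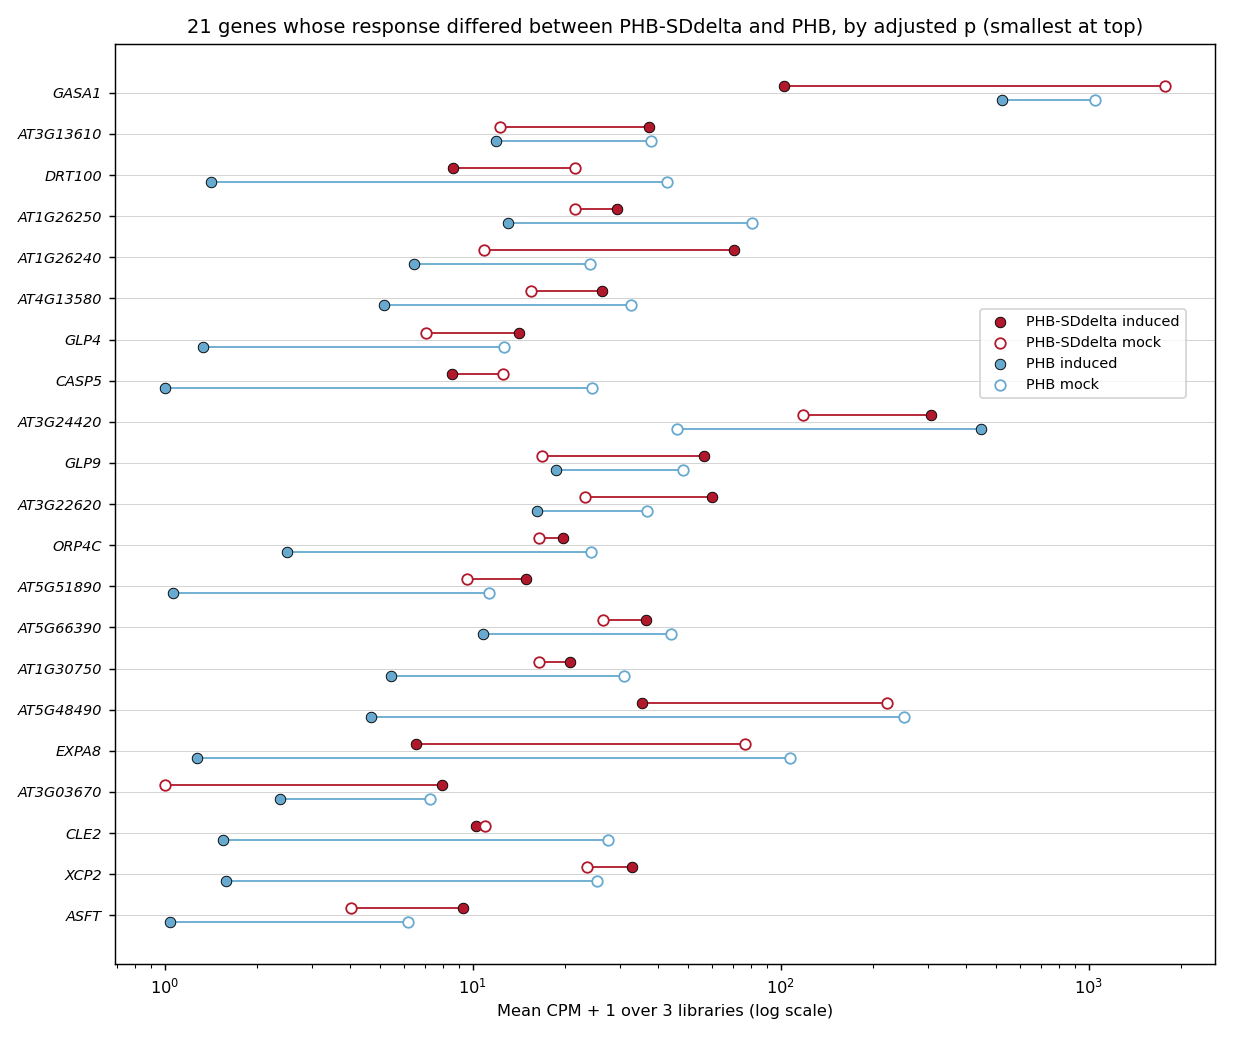
Mean CPM + 1 (log scale) over 3 libraries of induced (filled) and mock (open) PHB-SDdelta (red) and PHB (blue) seedlings for the 21 genes whose response differed between the lines, ordered by adjusted p. In 19 of 21 the change in PHB-SDdelta is higher than in PHB; GASA1 and AT3G24420 are the 2 exceptions.

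The other 14 genes each lost the call in at least 1 of the 12 fits. The extensin-like gene AT1G26240 lost it without PHB mock replicate 2 (adjusted p 0.0563). The germin-like gene GLP9 lost it without PHB mock replicate 2 (adjusted p 0.19) and PHB-SDdelta mock replicate 1 (adjusted p 0.0574), and the lipid transfer gene AT3G22620 without PHB induced replicate 3 (adjusted p 0.0508) and PHB-SDdelta mock replicate 3 (adjusted p 0.0647). AT3G24420, a hydrolase that rose less in PHB-SDdelta than in PHB, lost it without PHB mock replicate 2 (adjusted p 0.0563), PHB-SDdelta induced replicate 1 (adjusted p 0.0539) and PHB-SDdelta mock replicates 1 and 2 (adjusted p 0.0773 and 0.0541). For the other 10 the call was lost in 3 to 12 of the fits. These were the peroxidases AT5G51890, AT5G66390 and AT3G03670, the lipid-binding protein ORP4C, AT1G30750, the expansin EXPA8, the peptide CLE2, the xylem peptidase XCP2, the lipid transfer gene AT5G48490 and the suberin feruloyl transferase ASFT.

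Of 15 tested root endodermis genes, known from the Casparian strip and suberin, 2 were among the 21: CASP5, which kept its call in all 12 fits, and ASFT, which lost it in each of the 12 (adjusted p 0.0608 to 0.233). The summed level of the 15 lay between 196 and 258 CPM in induced and between 139 and 343 CPM in mock seedlings of PHB-SDdelta, against 73.3 to 141 CPM in induced and 289 to 440 CPM in mock PHB. In PHB-SDdelta edgeR called 0 of 15, with 0 at an unadjusted p under 0.05 and 0 by DESeq2, while 6 of 15 fell in PHB. Over all genes tested, 0.111% differed from PHB in response, 7.03% were called in PHB-SDdelta and 4.99% fell in PHB. The share of root in the sampled seedlings and its part in these differences was not tested.

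Against CNA-SDdelta, the other line with SDdelta, the response differed for 189 of 18909 genes (1%), with 85 higher (0.45%) and 104 lower (0.55%) in PHB-SDdelta. The share of higher genes was smaller with only the libraries of the 2 lines (169 higher, 331 lower), with a mean of at least 10 counts (67 and 131), and without replicate 2 of mock CNA-SDdelta (57 and 115). Without replicate 2 of induced CNA-SDdelta 34.6% of the calls were higher, against 45% with every library. For 103 of the 189 (54.5%) the mock libraries of the 2 lines differed by more than the induced ones. In CNA-SDdelta itself edgeR called 0 of the 5 HD-ZIPIII genes, CNA among them. Of the 1329 genes called in PHB-SDdelta, 493 (37.1%) were called in CNA-SDdelta, which is 54.3% of the 908 called there, and 477 moved the same way. Beside ZPR1, ZPR4, RAB18 and GASA1, the membrane protein gene AT3G07460 was among the smallest adjusted p. It had 25.8, 26.5 and 18.8 CPM in induced and 134, 137 and 108 CPM in mock seedlings of PHB-SDdelta, against 72.6, 115 and 86.1 CPM in induced and 34.7, 37.2 and 43.8 CPM in mock CNA-SDdelta (-3.66 ± 0.39 (SE) on the log2 scale, adjusted p 2.16e-09). AT2G45180, a lipid transfer family gene, had 1081, 1442 and 1231 CPM in induced and 11901, 13674 and 15882 CPM in mock seedlings of PHB-SDdelta, against 5683, 6132 and 5503 CPM in induced and 4758, 9138 and 8441 CPM in mock CNA-SDdelta (-3.10 ± 0.36 (SE) on the log2 scale, adjusted p 1.57e-08). GASA1 moved in opposite directions, with 267, 399.6 and 300.2 CPM in induced and 133, 136 and 178 CPM in mock CNA-SDdelta (-5.23 ± 0.50 (SE) on the log2 scale, adjusted p 1.14e-10). The KIN2 response was larger in PHB-SDdelta by 2.37 ± 0.25 (SE) on the log2 scale, adjusted p 1.55e-09.

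Against the mean response of the other 7 lines, 245 genes (1.3%) differed, with 146 higher (0.772%) and 99 lower (0.524%) in PHB-SDdelta; the count fell to 158 without replicate 2 and to 146 without replicate 3 of mock PHB-SDdelta. DESeq2, with its own scaling, split 205 higher and 230 lower. For 149 of the 245 (60.8%) the difference between mock groups was the larger. GASA1 (-5.17 ± 0.41 (SE) on the log2 scale, adjusted p 5.17e-14), AT2G45180 (-2.91 ± 0.28 (SE) on the log2 scale, adjusted p 4.81e-11) and AT3G07460 (-2.78 ± 0.30 (SE) on the log2 scale, adjusted p 3.26e-09) were lower. So was the small GTPase gene RABG3B, which had 61.2, 78.2 and 47.2 CPM in induced and 210.1, 212 and 246 CPM in mock PHB-SDdelta (-2.49 ± 0.28 (SE) on the log2 scale, adjusted p 7.15e-09). KIN2 (1.69 ± 0.19 (SE) on the log2 scale, adjusted p 6.8e-09) and KIN1 (2.53 ± 0.32 (SE) on the log2 scale, adjusted p 3.11e-07) were higher.

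Levels of the 2 PHB constructs' seedlings were also compared within a treatment. Between induced groups 97 genes differed (0.513%), with 56 higher (0.296%) and 41 lower (0.217%) in PHB-SDdelta, and between mock groups 11 (0.0582%), with 5 higher (0.0264%) and 6 lower (0.0317%). ELI3-1, an alcohol dehydrogenase, had 101.9, 129 and 169 CPM in induced seedlings of PHB-SDdelta, against 392, 409.8 and 399.6 CPM in induced PHB (-1.59 ± 0.24 (SE) on the log2 scale, adjusted p 8.17e-05). AT3G19030 had 494, 576 and 612 CPM in induced seedlings of PHB-SDdelta, against 226, 164 and 245 CPM in induced PHB (1.41 ± 0.21 (SE) on the log2 scale, adjusted p 8.17e-05). The antenna gene LHCB1.1, which has near-identical copies, had 507, 821 and 1322 CPM in induced seedlings of PHB-SDdelta, against 149.7, 164.8 and 351 CPM in induced PHB (2.004 ± 0.35 (SE) on the log2 scale, adjusted p 0.00147). Among mock seedlings the stress-induced protein TSPO differed, with 44.02, 37.1 and 30.1 CPM in mock seedlings of PHB-SDdelta, against 11.99, 9.79 and 11.9 CPM in mock PHB (1.73 ± 0.31 (SE) on the log2 scale, adjusted p 0.0106). LEA7 had 15.3, 33.7 and 17.3 CPM in mock PHB-SDdelta and 2.70, 3.58 and 3.36 CPM in mock PHB (2.78 ± 0.56 (SE) on the log2 scale, adjusted p 0.0197).

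Markers of other tissues were summed in the same way as those of mesophyll. Summed epidermis and wax genes lay between 2692 and 2991 CPM in induced and 1623 and 1901 CPM in mock PHB-SDdelta. Of the 28 tested, 11 were called higher and 2 lower. The epidermal regulator PDF2 was among those called lower, and ATML1 had a lower mean without passing the test. Secondary wall xylem genes lay between 141 and 199 CPM in induced and 193 and 225 CPM in mock, with 1 of 19 called. ACL5, a thermospermine synthase of the xylem, had 16.8, 21.5 and 15.1 CPM in induced and 59.9, 65.97 and 69.7 CPM in mock seedlings (log2 fold change -1.87 ± 0.43 (SE), adjusted p 0.00148). Stomatal lineage genes lay between 9.79 and 19.1 CPM in induced and 26.3 and 36.7 CPM in mock, and shoot meristem and boundary genes between 54.9 and 63.7 CPM in induced and 100.7 and 123.1 CPM in mock. Neither pair of ranges overlaps, yet edgeR called 0 of 7 stomatal and 0 of 6 meristem genes, with 1 of each at an unadjusted p under 0.05 and 1 of each by DESeq2. The meristem organizer WUS and the stomatal regulators SPCH and MUTE had no count in any of the 6 libraries. The part of these tissues in the results was not tested.

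Other lists gave few or no calls in PHB-SDdelta. EdgeR called 0 of 8 CIN-type TCP genes, 0 of 4 gibberellin enzymes, 0 of 9 flavonoid genes, 0 of 6 phosphate starvation genes, 0 of 4 root hair genes and 0 of 11 microRNA pathway genes, with 0 at an unadjusted p under 0.05 and 0 by DESeq2 in each. It called 0 of 13 heat shock genes, 0 of 19 cell cycle genes and 0 of 4 phloem genes, with 1 at an unadjusted p under 0.05 and 0 by DESeq2 in each. It called 0 of 7 type-A ARR cytokinin genes (1 unadjusted, 1 by DESeq2) and 0 of 10 iron genes (2 unadjusted, 1 by DESeq2). Of 20 jasmonate genes 2 were higher and 1 lower, with JAZ1, a repressor induced by jasmonate, at 24.5, 24.9 and 30.9 CPM in induced and 4.06, 2.86 and 3.10 CPM in mock seedlings (log2 fold change 2.98 ± 0.60 (SE), adjusted p 0.000312). JAZ12, which was higher, lost its call without mock replicate 1 (adjusted p 0.0631), and JAZ9, which was lower, without induced replicates 1 and 3 (adjusted p 0.0871 and 0.0767) and mock replicate 1 (adjusted p 0.158). The glucosinolate enzyme CYP79B2, which also feeds auxin synthesis, rose as the 1 of 15 called (log2 fold change 2.61 ± 0.57 (SE), adjusted p 0.000887).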

How the data were processed

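RNA of whole seedlings was made into Lexogen QuantSeq 3′ libraries, per the labels' protocols. For each of 48 libraries the deposited file holds whole-number counts for 28496 gene identifiers, which the authors made from reads mapped with RNA STAR, per the file headers. The submitters' processing notes also name Trimmomatic, featureCounts, DESeq2 and TAIR10, without versions, and whether counting used strand is not given in the sources used here. Of the identifiers 28009 were in the RefSeq gene table (TAIR10.1), the source of names, coordinates and sequences.

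Groups were taken from the sample titles. Counts were tested with edgeR 4.0.16 in R 4.3.3 (TMM scaling, default low-count filter leaving 18909 genes, quasi-likelihood fit of all 48 libraries with 1 mean per group), and p-values were adjusted by the Benjamini-Hochberg method. A response is induced minus mock, and the difference between 2 responses was tested as an interaction term. Each SE is the size of the log2 fold change or difference divided by the square root of the test's F statistic. It thus follows from the same test and is not a separate estimate of precision. Such a difference can lie in the mock levels as well as in the induced ones. Levels are TMM-scaled counts per 1000000 (CPM), and 3 counts correspond to 0.344 to 0.466 CPM in induced and 0.487 to 0.929 CPM in mock PHB-SDdelta libraries; such floors cover counting error only. The biological coefficient of variation was 60.9% over all libraries and 36.3% within the PHB-SDdelta libraries alone. The scripts were tested on simulated data. Labels call the 3 samples of a group biological replicates without saying that they came from separate plates. The p-values rest on the spread between samples of a group, estimated over all 48 libraries, and this spread may be technical. Replicates of a group differed by more than sampling noise.

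Members and gene lists were chosen with earlier results of these data known, and the 47 lists, partly from an earlier analysis of these data, support no direction independently. Of 681 listed genes 592 passed the low-count filter; 6 further names were dropped because the gene table does not hold them. Genes named are the HD-ZIPIII and ZPR genes, the 12 largest changes per direction (non-overlapping libraries, and 50 or more counts on average in whichever group was higher), up to 5 called members with the smallest adjusted p from each list with at least 2 called, every gene called in the difference from PHB, and the 6 with the smallest adjusted p in each other difference. ABI2, ACL5, ATML1, COR15A, COR413IM1, COR47, CYP79B2, ERD14, HAB1, HAB2, IAA3, LEA14, PDF2, PIP1;4, RD29B, XTH15 and the CBF genes were named after their values were seen. Of 167 genes under the rule 43 overlap another annotated gene, so reads may be mixed. Alternatives were DESeq2 1.42.0 (its size factors and its own test), 2 other low-count filters, fits of the compared lines alone, a replicate block, thinning to the smallest library, and leaving out each library in turn.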

Additional observations from a re-analysis of the deposited data

Results flagged for a closer look

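The responses of PHB-SDdelta and another line were tested against each other by an interaction term in edgeR, with Benjamini-Hochberg adjustment over all genes tested, and the results below passed that test. Values are differences of log2 fold changes, PHB-SDdelta minus the other line, or adjusted p-values where 1 of the groups had at most 3 counts in every library.

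Against PHB 21 genes differed. The gibberellin-regulated peptide gene GASA1 (-3.11) and the hydrolase AT3G24420 (-1.92) were lower in PHB-SDdelta. The oxygenase AT3G13610 (3.38), the extensin-like genes AT1G26250 (3.18) and AT1G26240 (4.66), the dirigent-like gene AT4G13580 (3.78) and the germin-like genes GLP4 (5.72) and GLP9 (3.20) were higher. So were the lipid transfer genes AT3G22620 (2.62) and AT5G48490 (3.68), the lipid-binding ORP4C (4.11), the peroxidase AT5G66390 (2.68), AT1G30750 (3.17), the signalling peptide CLE2 (5.05) and the xylem peptidase XCP2 (5.43). For GLP4, CLE2 and XCP2 2 of the 3 induced PHB libraries held no count, and without the other one (replicate 1) the values were 10.51, 10.46 and 10.96. With each of the 12 libraries of both lines left out in turn, CLE2 lost its call 9 times and XCP2 11 times. The remaining 6 were higher as well, with adjusted p-values of 0.00305 for DRT100, 0.00602 for CASP5, 0.0153 for the peroxidase AT5G51890, 0.0374 for EXPA8, 0.047 for the peroxidase AT3G03670 and 0.0474 for ASFT.

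Against CNA-SDdelta 189 genes differed. The 6 with the smallest adjusted p and enough counts, together with the LITTLE ZIPPER genes, gave -5.23 for GASA1, 2.37 for KIN2, -3.66 for AT3G07460, 3.91 for ZPR1, -3.10 for AT2G45180, 4.36 for RAB18 and 3.21 for ZPR4. Against the mean of the other 7 lines 245 genes differed, and the same choice gave -5.17 for GASA1, -2.91 for AT2G45180, -2.78 for AT3G07460, 1.69 for KIN2, -2.49 for RABG3B and 2.53 for KIN1. Groups held 3 libraries, too few to look for single libraries that stand apart.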

How the results depend on the processing

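With edgeR on all libraries, 1329 genes were called in the response of PHB-SDdelta, 21 in its difference from PHB, 189 in that from CNA-SDdelta and 245 in that from the other 7 lines. DESeq2's own test called more in the differences, 44 from PHB, 345 from CNA-SDdelta and 435 from the other 7 lines. With no low-count filter 99, 289 and 379 genes were called in the same 3 differences. Fits of the compared lines alone, with their own smaller spread, called 2478 in the response, 42 in the difference from PHB and 500 in that from CNA-SDdelta; such a fit was not run for the other 7 lines, which already use every library. The causes of these moves were not tested. Every other full-library alternative stayed within 1.5 times of the count above. Leaving out 1 library gave 978 to 1077 calls in the response, 10 to 30 in the difference from PHB, 134 to 174 in that from CNA-SDdelta and 146 to 274 in that from the other 7 lines. The lowest counts from PHB came without replicate 2 of mock PHB (10) and without replicates 1 (10) and 3 (11) of mock PHB-SDdelta, and those from the other 7 lines without replicates 2 (158) and 3 (146) of mock PHB-SDdelta. A replicate block gave 1270, 20, 183 and 251 calls. In PHB-SDdelta the numbers do not show pairing, since deviations of same-numbered libraries correlated at 0.03, -0.04 and -0.02. In PHB the same correlations were 0.20, 0.07 and -0.01, and those of differently numbered libraries ran from -0.20 to 0.12. In CNA-SDdelta same-numbered libraries gave -0.06, -0.04 and 0.01. Of 1191 values for named genes under full-library alternatives 1177 kept direction and call, 13 lost the call and 1 turned, and of 1440 values with 1 library left out 1273 kept both, 162 lost the call and 5 turned. The values that turned were those of 2 genes never called: REV, at -0.11 with thinned counts and between -0.41 and 2.45 with 1 library left out, and PHV, between -0.24 and 0.49 with 1 library left out. For the lists 296 of 329 counts under full-library alternatives stayed within 1.5 times, 32 were larger and 1 smaller. A fall of a gene near 3 counts is not detectable in mock libraries of 2927492 to 5539812 counts.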

Other observations

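Gene families outside the lists, grouped by the words of their annotation after values had been seen, moved as follows in PHB-SDdelta against 3.59% higher and 3.44% lower over all genes tested. Of 70 late embryogenesis abundant and dehydrin genes 19 rose, against 20 in PHB and 10 in CNA-SDdelta. Of 54 SAUR-like genes 13 fell, with 18 lower and 1 higher in PHB and 2 lower and 2 higher in CNA-SDdelta. Over all genes tested 4.44% were higher and 4.99% lower in PHB, and 2.71% higher and 2.09% lower in CNA-SDdelta. Of 115 UDP-glycosyltransferases 16 rose and 2 fell, of 127 cytochrome P450 genes 15 rose and 2 fell, of 48 glutathione S-transferases 13 rose, and of 41 MATE efflux proteins, which carry small molecules out of cells or into vacuoles, 7 rose. Among transcription factors 8 of 52 NAC and 6 of 49 WRKY genes rose.

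Arabinogalactan proteins, which coat the plasma membrane and wall, had 10 of 42 members lower, 2 higher and 30 not called, and 9 of 99 pectin enzymes were lower and 1 higher. Of 24 NPH3 family genes, known from phototropism, 4 fell. Ribosomal protein genes had 5 of 309 members higher and 6 lower, smaller shares than over all genes tested (3.59% and 3.44%). Peroxidases hold 3 of the 19 genes whose response was higher than in PHB, out of 50 tested, against 0.1% of all genes tested. All 3 lost that call without replicate 1 of mock PHB-SDdelta and without replicate 1 of induced PHB. In PHB 10 of the 50 fell and 1 rose, against 4.99% lower and 4.44% higher over all genes tested.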
